A study of Arabidopsis thaliana with 48 samples.

Results

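Loss of *FLC* was examined in leaves of *Arabidopsis thaliana* plants that already lacked *SVP* and were kept in short days (SDs). The comparison set the 3 arrays of flc/svp SD leaves, from double mutants, against the 3 arrays of FLC/svp SD leaves, from *svp* single mutants with a functional *FLC*, so 6 of the 48 arrays of the series were its members, chosen by their labelled genotype, day length and tissue. For comparison, the same loss was followed with SVP present, in flc/SVP against FLC/SVP SD leaves, and without SVP in long-day (LD) leaves and in SD and LD apices, each again from 3 arrays a group. All plants were of the Columbia background and, per the study's methods, carried a functional *FRIGIDA* allele, which keeps *FLC* transcription high in plants that have not been through winter. Plants grew on soil for 2 weeks of SDs, and leaves were taken 8 h after dawn. The SD samples are also labelled with 2 further short days, and the LD plants had spent 2 days in LDs, so it is not settled whether both were of one age. The mutant alleles were *flc-3* and *svp-41*, so each loss rests on 1 allele. Other differences between the plant lines cannot be told apart from the loss. The labels call the replicates biological without saying how many plants each held.

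FLC and SVP are both MADS-box proteins that hold back flowering, and they can bind DNA in a common complex. FLC transcription falls during prolonged cold, which releases the genes it represses, among them the leaf-made flowering signal *FT* and the floral integrator *SOC1*, while SVP acts with FLC on many of these genes and is also expressed in plants without FLC. Removing *FLC* from *svp* plants therefore asks what FLC does in the leaf when this partner is missing.

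RNA of each sample was labelled and hybridised to its own AGRONOMICS1 array, an Affymetrix tiling array, and the deposited values are log2 levels of 31004 genes, so a difference of 1 between groups is a 2-fold change. A gene was called when it differed by over 2-fold at an adjusted p under 0.01 in a limma fit of all 48 arrays, and "rose" and "fell" are used of called genes only. Replicate arrays of SD leaves correlated at 0.987 to 0.991 within a genotype, against 0.985 to 0.988 between flc/svp and FLC/svp arrays. The number of arrays limits the precision of all values. The leaf label was checked against markers, and the mean level of the 10 leaf mesophyll markers was 11.5 to 11.6 in flc/svp leaves and 11.5 to 11.7 in FLC/svp leaves, against 3.91 to 3.94 and 3.85 to 3.95 for the 10 shoot meristem markers. None of 40 measured markers of mesophyll, meristem, dividing cells, root, vasculature or stomata was called, and the reference transcripts *PP2A* and *UBC21* differed by 0.02 and −0.03. In whole leaves, fewer cells of a type and less RNA per cell cannot be told apart.

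The labels were checked against the mutated genes. *FLC* (AT5G10140) stood at 5.09, 5.52 and 5.57 in flc/svp leaves, against 9.29, 9.11 and 9.004 in FLC/svp leaves. The groups lay far apart, and the loss amounted to −3.74 on the log2 scale (SE 0.14, limma adjusted p = 8.02e-21), or 13.4-fold. *SVP* gave 6.46, 6.47 and 6.63 in flc/svp leaves and 7.32, 7.02 and 7.34 in FLC/svp leaves, both below the 7.77 to 8.24 of flc/SVP leaves and the 8.25 to 8.34 of FLC/SVP leaves. Both sets of *svp* arrays were thus below those with functional *SVP*, and the probes still gave a lower *SVP* level in flc/svp than in FLC/svp leaves, by −0.71 (SE 0.11, adjusted p = 8.03e-05), under the 2-fold threshold.

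Without SVP, *FLC* loss changed 228 of 31004 genes in SD leaves (0.735%), of which 119 were higher (0.384%) and 109 lower (0.352%) in flc/svp than in FLC/svp leaves. The genes that rose included jasmonate synthesis and conjugate-processing genes, while the genes that fell were led by transcription factors that respond within minutes to touch, wounding and other stresses. The median change of all genes was 0.00. The 119 genes that rose had a median level of 6.99 in flc/svp leaves and 5.48 in FLC/svp leaves, and the 109 that fell had 5.74 and 7.67. Over all genes, the 3 flc/svp arrays lay wholly above the 3 FLC/svp arrays for 2391 genes (7.71%) and wholly below them for 2771 (8.94%). When any 1 of the 6 arrays was left out the count was 174 to 215, and a fit of the 6 arrays alone called 76 genes, 69 of them among the 228.

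**Figure D1:**
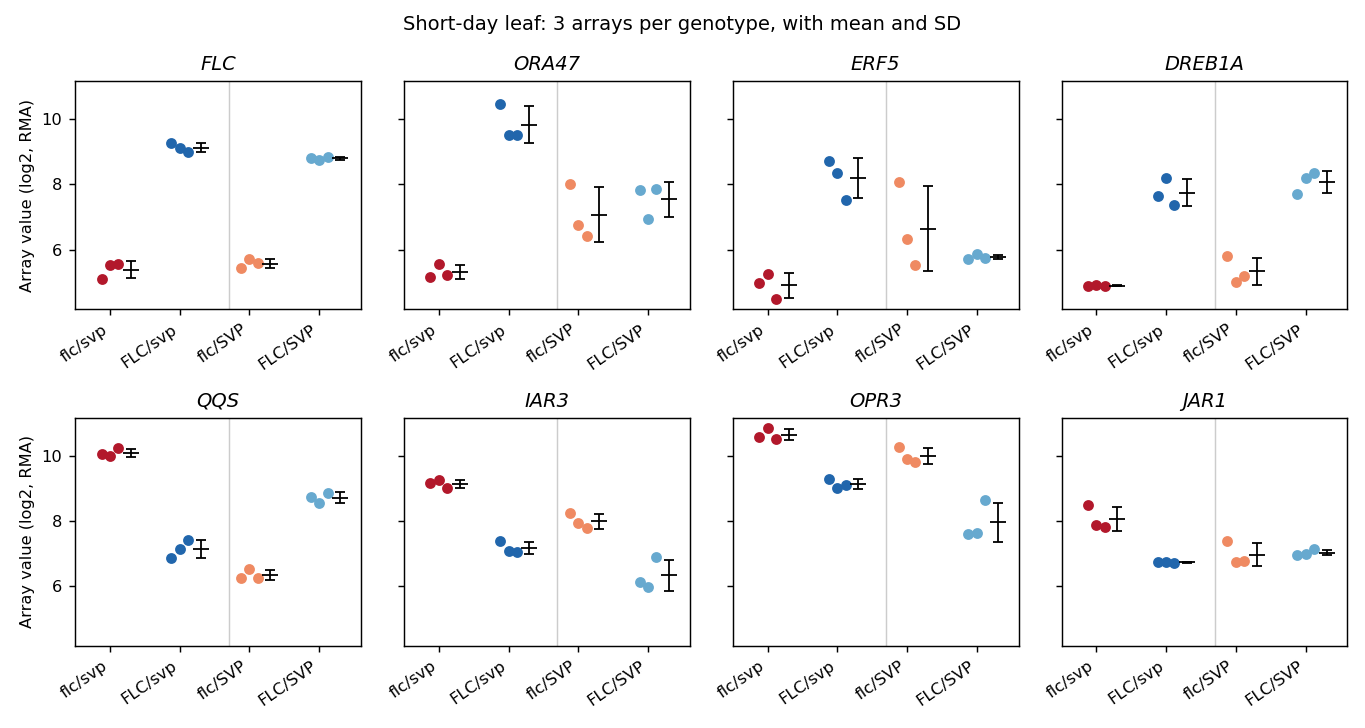
Log2 level (y axis) of 8 genes in SD leaves of flc/svp, FLC/svp, flc/SVP and FLC/SVP plants. Each point is 1 array (3 per genotype), with the mean and SD beside it. *ORA47* is at 5.16 to 5.57 in flc/svp leaves and at 9.51 to 10.48 in FLC/svp leaves, while *IAR3*, *OPR3* and *JAR1* are higher in flc/svp than in FLC/svp leaves on every array.

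The 12 genes with the largest rise, among called genes whose arrays did not overlap, held several genes of jasmonate turnover and defence. *IAR3* (AT1G51760), an amidohydrolase that cleaves amino acid conjugates of auxin and of jasmonate, gave 9.16, 9.27 and 9.03 in flc/svp leaves and 7.40, 7.07 and 7.06 in FLC/svp leaves. Its groups were well separated, with a rise of 1.98 (SE 0.17, adjusted p = 8.36e-10), or 3.93-fold. The related amidohydrolase gene *ILL6*, chosen after its values were seen, was at 7.98, 7.95 and 8.23 in flc/svp leaves, against 6.35, 5.997 and 6.64 in FLC/svp leaves, and rose by 1.73 (adjusted p = 1.45e-05). *TAT3*, a jasmonate-responsive tyrosine aminotransferase, had 6.67, 6.50 and 4.78 in flc/svp leaves and 3.43, 3.54 and 3.61 in FLC/svp leaves. The third flc/svp array was nearer to the FLC/svp arrays than the other two, yet above them, and the rise was 2.46 (SE 0.38, adjusted p = 3.47e-05). *AT3G23550*, annotated without a symbol, showed the same array pattern, at 8.35, 7.78 and 6.63 in flc/svp leaves against 4.50, 4.61 and 4.17 in FLC/svp leaves (3.16, SE 0.38, adjusted p = 4.92e-07).

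Transcription factor genes also rose. *WRKY18*, a WRKY factor that acts in basal defence, measured 10.52, 10.57 and 10.76 in flc/svp leaves and 8.06, 8.32 and 8.88 in FLC/svp leaves, a rise of 2.19 (SE 0.31, adjusted p = 9.71e-06) between groups that were each tight. The AP2/ERF genes *ABR1* and *CEJ1*, both from a family of ethylene- and stress-related factors, rose by 1.93 (SE 0.18, adjusted p = 4.32e-09) and 1.96 (adjusted p = 0.000262). *ABR1* was at 5.72, 5.92 and 5.07 in flc/svp leaves, against 3.40, 3.62 and 3.89 in FLC/svp leaves. *RTFL1*, of a family of small peptides that limit cell proliferation when overexpressed, was at 8.93, 9.02 and 9.04 in flc/svp leaves and at 6.97, 6.76 and 7.34 in FLC/svp leaves (1.98, SE 0.22, adjusted p = 1.71e-07). Of the remaining genes in this set, *ERD5*, a proline dehydrogenase, rose by 2.05 (adjusted p = 0.00208), but lost its call without FLC/svp replicate 1 or 2 or flc/svp replicate 3 (adjusted p between 0.0119 and 0.0385), and *AT5G36925* rose by 1.95 (adjusted p = 0.00272) and lost its call without FLC/svp replicate 1 or 3 or flc/svp replicate 1 or 2 (adjusted p between 0.0243 and 0.0458).

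The 3 others of the 12 largest rises differed from the rest in that they were called higher in LD leaves and in both apices as well. *SADHU3-2*, a short retroelement-derived transcript, was at 10.21, 10.35 and 10.33 in flc/svp leaves, against 5.83, 5.76 and 5.80 in FLC/svp leaves, the largest rise (4.50, SE 0.17, adjusted p = 8.02e-21). *QQS*, an orphan gene that affects starch and protein content, was at 10.07, 10.002 and 10.24 in flc/svp leaves and at 6.88, 7.15 and 7.42 in FLC/svp leaves (2.95, SE 0.19, adjusted p = 1.4e-13). *AT1G67105*, annotated as a non-coding RNA, was at 7.62, 7.94 and 7.92 against 5.03, 5.48 and 5.74 in the same groups (2.41, SE 0.15, adjusted p = 1.62e-13). With SVP present the changes of all 3 were below 0 on *FLC* loss, at −0.75 for *SADHU3-2*, −2.38 for *QQS* and −0.16 for *AT1G67105*, and *QQS* was the one called.

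Jasmonate is a lipid-derived hormone of wounding and defence. It is made from membrane fatty acids by lipoxygenases (LOX), allene oxide synthase and cyclases (AOS, AOC) and the reductase OPR3, is joined to isoleucine by JAR1, and acts through the receptor COI1, which removes JAZ repressors from MYC factors. Of the 30 listed jasmonate genes, 7 rose and none fell without SVP (23.3%, against 0.384% of all genes that rose), 22 had a change above 0, and the median change was 0.53. The flc/svp arrays lay wholly above the FLC/svp arrays for 18 members (against 7.71% of all genes) and wholly below them for 3 (against 8.94%). The flc/svp group had the highest mean of the 4 genotypes for 18 of the 30 members, and FLC/SVP the lowest for 20. Neither share was counted over all genes. On the third FLC/SVP array the mean level of the list was 7.15, against 6.39 and 6.32 on the others.

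Several steps of synthesis were represented among the 7. *LOX3*, an early lipoxygenase of the pathway, was at 8.24, 8.08 and 7.40 in flc/svp leaves and at 6.31, 6.62 and 6.20 in FLC/svp leaves, with no overlap (1.53, SE 0.25, adjusted p = 9.28e-05). The cyclase gene *AOC3* gave 8.45, 8.46 and 6.97 in flc/svp leaves, against 6.27, 6.55 and 6.20 in FLC/svp leaves (1.62, SE 0.32, adjusted p = 0.00106). The third flc/svp array was close to the FLC/svp arrays, and the call was lost without flc/svp replicate 1 (adjusted p = 0.0202) or 2 (adjusted p = 0.0180). *AOC1*, a second cyclase gene, was at 11.96, 12.04 and 11.80 in flc/svp leaves and at 10.58, 10.28 and 10.63 in FLC/svp leaves (1.43, SE 0.34, adjusted p = 0.00719), and lost its call when any 1 of the 6 arrays was left out (adjusted p between 0.0156 and 0.0482). *OPR3* stood at 10.59, 10.86 and 10.52 in flc/svp leaves, against 9.30, 9.02 and 9.10 in FLC/svp leaves. These groups were far apart, and the rise of 1.52 (SE 0.23, adjusted p = 2.18e-05) was 2.87-fold.

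*JAR1* (AT2G46370), the enzyme that makes the active jasmonoyl-isoleucine, measured 8.49, 7.89 and 7.82 in flc/svp leaves, while the FLC/svp arrays were nearly identical at 6.74, 6.74 and 6.72. It rose by 1.33 (SE 0.14, adjusted p = 2.22e-08). *CYP94C1*, a cytochrome P450 that oxidises jasmonoyl-isoleucine, was at 5.86, 6.57 and 6.84 in flc/svp leaves and at 4.97, 4.74 and 5.22 in FLC/svp leaves (1.44, adjusted p = 0.000498). Of the 12 *JAZ* repressor genes, 1 rose, *JAZ10*, with 6.74, 7.20 and 7.18 in flc/svp leaves and 5.53, 5.52 and 5.58 in FLC/svp leaves (1.50, SE 0.25, adjusted p = 0.000116). With SVP it changed by 0.84 (adjusted p = 0.0256), and the difference of 0.66 between backgrounds did not pass (adjusted p = 0.52). *JAZ3* differed by 0.87 at an adjusted p of 0.0034, and the receptor gene *COI1* by −0.40 at an adjusted p of 0.00197, both under the 2-fold threshold. The factor gene *MYC2* differed by −0.42 and the storage protein gene *VSP2*, a common jasmonate marker, by 0.25, at adjusted p of 0.62 and 0.865. Leaving out 1 of the 6 arrays gave 5 or 6 called members, and a fit of those 6 arrays alone gave 3.

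**Figure D2:**
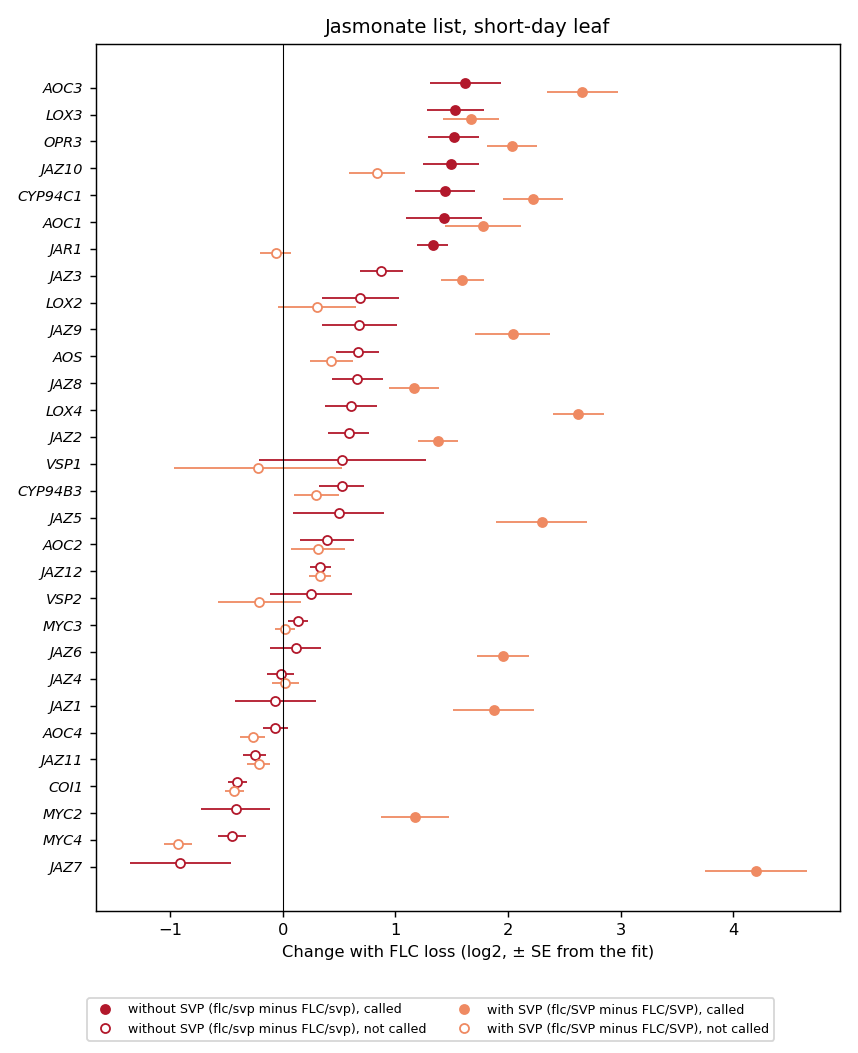
Log2 change on *FLC* loss in SD leaves (x axis) for the 30 jasmonate genes, without SVP (flc/svp minus FLC/svp, dark red) and with SVP (flc/SVP minus FLC/SVP, orange). Points are fitted changes, bars their SE, and filled points are called. 7 genes are called higher without SVP and 15 with SVP, and *JAR1* lies at 1.33 without SVP and at −0.06 with SVP.

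Of the 12 largest falls, *FLC* included, 7 were in transcription factor genes. *ORA47* (AT1G74930), an AP2/ERF factor that responds to wounding and can activate jasmonate synthesis genes, fell most, with 5.16, 5.57 and 5.21 in flc/svp leaves and 10.48, 9.51 and 9.53 in FLC/svp leaves. The groups lay far apart on every array, and the change was −4.53 (SE 0.39, adjusted p = 8.33e-10), or 23.0-fold lower. *MYB77*, a MYB factor of auxin responses, was at 5.99, 5.66 and 5.49 in flc/svp leaves and at 8.57, 8.95 and 8.83 in FLC/svp leaves (−3.07, SE 0.40, adjusted p = 2e-06). *ACS6*, which makes the precursor of ethylene, was at 5.76, 5.82 and 5.30 in flc/svp leaves, against 8.29, 8.41 and 8.38 in FLC/svp leaves (−2.73, SE 0.36, adjusted p = 3.37e-06). Among the 12 largest falls *FLC* itself ranked second, and *AT4G37290*, without a symbol, fell by 2.64 (adjusted p = 0.000129).

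Calls of 3 other genes among the largest falls depended on single arrays. *AT4G27280*, at 7.70, 7.38 and 7.27 in flc/svp leaves and 10.27, 11.16 and 10.72 in FLC/svp leaves, fell by 3.26 (adjusted p = 0.00182), a call lost without FLC/svp replicate 2 (adjusted p = 0.0152) or flc/svp replicate 2 or 3 (adjusted p = 0.0115 in either case). *PBP1* (AT5G54490), a calcium-binding partner of the PINOID kinase, fell by 2.87 (adjusted p = 0.00616), a call lost without any 1 of 5 arrays, all but FLC/svp replicate 3 (adjusted p between 0.0112 and 0.0590). *AT1G35210* fell by 2.84, and its call was lost without FLC/svp replicate 1 (adjusted p = 0.0134) or flc/svp replicate 3 (adjusted p = 0.0104).

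The list of 21 touch, wound and early stress genes, which respond within minutes to mechanical and other stimuli, moved downward. Of its members 5 fell and none rose (23.8%, against 0.352% of all genes that fell), 19 had a change below 0, the median change was −1.14, and for 15 members the flc/svp arrays lay wholly below the FLC/svp arrays (against 8.94% of all genes). *ERF5*, an ethylene response factor of stress and growth control, was at 4.97, 5.24 and 4.49 in flc/svp leaves and at 8.73, 8.35 and 7.53 in FLC/svp leaves (−3.30, SE 0.51, adjusted p = 4.44e-05). *ERF104*, a factor released by an immune kinase, was at 5.31, 5.13 and 5.31 in flc/svp leaves, against 8.41, 8.47 and 8.15 in FLC/svp leaves (−3.09, SE 0.47, adjusted p = 3.43e-05). Both pairs of groups were clear of each other.

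The 3 further members that fell held their calls less firmly. *ERF105*, a cold- and stress-responsive factor, fell by 2.74 (adjusted p = 0.00665), but not at this threshold when any 1 of the 6 arrays was left out (adjusted p between 0.0106 and 0.0554). *ZAT6*, a zinc finger factor of abiotic stress, fell by 2.32 (adjusted p = 0.00365), a call that only the set without FLC/svp replicate 3 kept (adjusted p between 0.0111 and 0.0373 in the other 5 sets). *RRTF1*, a redox-responsive AP2/ERF factor, was at 4.91, 5.41 and 5.77 in flc/svp leaves and at 6.77, 7.22 and 6.84 in FLC/svp leaves (−1.58, adjusted p = 0.000585), and lost its call without flc/svp replicate 1 (adjusted p = 0.0118). The number of called members was 2 without flc/svp replicate 1, 4 without FLC/svp replicate 3 and 3 without any other array or in a fit of the 6 arrays alone. Members that did not pass included *ZAT10* (−2.22, adjusted p = 0.073) and the xyloglucan-modifying *TCH4* (−0.56, adjusted p = 0.738).

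**Figure D3:**
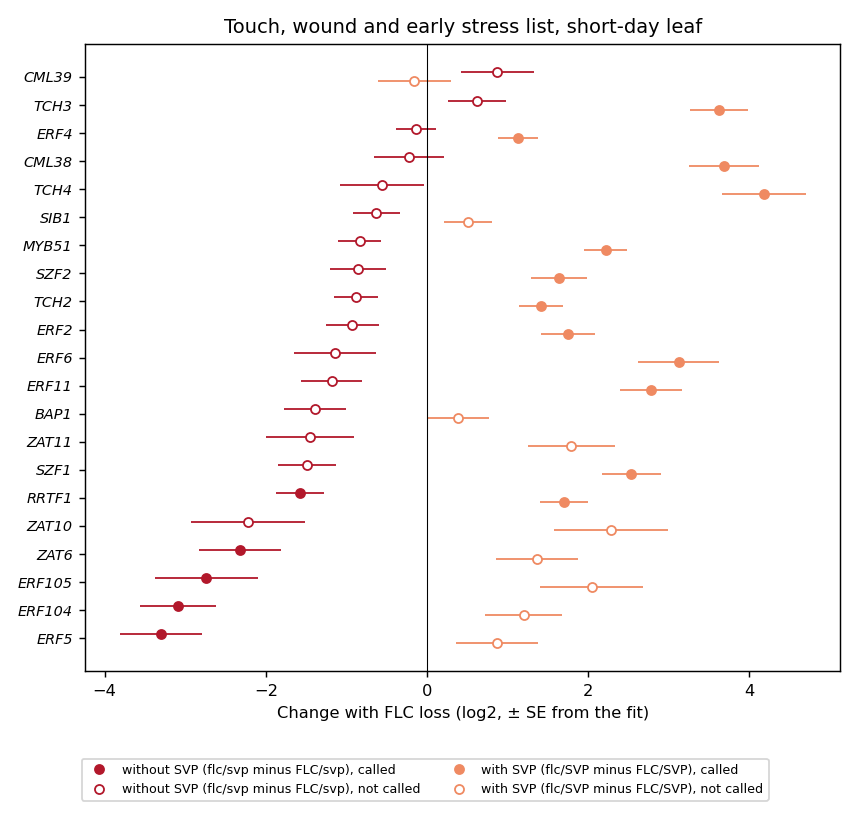
Log2 change on *FLC* loss in SD leaves (x axis) for the 21 touch, wound and early stress genes, without SVP (flc/svp minus FLC/svp, dark red) and with SVP (flc/SVP minus FLC/SVP, orange). Points are fitted changes, bars their SE, and filled points are called. 19 of 21 changes lie below 0 without SVP and 20 of 21 above 0 with SVP.

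WRKY factors, defence regulators that bind the W-box, went both ways, with 2 of 20 higher and 2 lower (each 10% of the list, against 0.384% and 0.352% of all genes). *WRKY70*, which tunes salicylate against jasmonate responses, was at 8.26, 8.32 and 8.39 in flc/svp leaves, against 10.56, 10.56 and 10.69 in FLC/svp leaves, with very little spread in either group (−2.28, SE 0.31, adjusted p = 5.97e-06). *WRKY33*, needed for camalexin defence, fell by 1.82 (adjusted p = 0.00879), but only the set without flc/svp replicate 1 kept this call when 1 array was left out (adjusted p between 0.0134 and 0.122 in the other 5 sets). Besides *WRKY18*, described above, *WRKY25* rose by 1.14 (adjusted p = 0.000247). Of 17 salicylate and immunity genes 1 rose (5.88%, against 0.384% of all genes). It was *EDS5*, the transporter that exports the salicylate precursor from chloroplasts, with 5.67, 5.97 and 6.31 in flc/svp leaves and 4.53, 4.22 and 4.50 in FLC/svp leaves (1.57, SE 0.16, adjusted p = 2.22e-08). The marker *PR1* of that pathway differed by 0.13 (adjusted p = 0.925).

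Of 18 cold response genes 1 fell (5.56%, against 0.352% of all genes). *DREB1A* (AT4G25480, also called CBF3), an activator of the cold regulon, was at 4.87, 4.92 and 4.89 in flc/svp leaves and at 7.65, 8.21 and 7.39 in FLC/svp leaves, so the flc/svp arrays were uniformly low and the groups did not meet (−2.85, SE 0.36, adjusted p = 1.23e-06, or 7.22-fold lower). Its neighbours and close homologues *CBF1* and *CBF2* differed by −1.24 and −1.59 at adjusted p of 0.0116 and 0.0140, short of the threshold. The cold-regulated target genes *COR15A* and *RD29A* differed by −0.09 and −0.10, at adjusted p of 0.968 and 0.976.

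Few flowering genes passed both thresholds in these leaves. None of 19 floral promoters and none of 9 floral organ identity genes was called. *SOC1* gave 7.63, 7.74 and 7.76 in flc/svp leaves and 6.97, 6.52 and 6.93 in FLC/svp leaves. These separated groups differed by 0.90 (adjusted p = 1.25e-05), or 1.87-fold, under the 2-fold threshold. *SOC1* was called higher on *FLC* loss in the other comparisons. Without SVP it rose by 1.03 (LD leaf), 1.27 (SD apex) and 1.90 (LD apex), and with SVP by 1.84 (SD leaf). *FT* differed by 0.44 (adjusted p = 0.13) in SD leaves without SVP. Of 18 floral repressors *FLC* alone fell. *TEM2*, a repressor of *FT*, differed by 1.41, with 5.58, 5.24 and 5.24 in flc/svp leaves and 3.73, 3.96 and 4.12 in FLC/svp leaves, at an adjusted p of 0.0207. In LD leaves without SVP *TEM2* rose by 2.03, and it was not called in SD or LD apices (0.72 and 0.79). Among 25 photoperiod and clock genes 2 fell (8%, against 0.352% of all genes), both DOF factors that repress *CONSTANS*. *CDF1* (AT5G62430) fell by 1.08 (adjusted p = 0.00458) and *CDF3* by 1.02 (adjusted p = 0.00696). Both calls were fragile, since *CDF1* kept its call only without FLC/svp replicate 2 or flc/svp replicate 1 (adjusted p between 0.0259 and 0.0563 in the other 4 sets) and *CDF3* only without FLC/svp replicate 3 (adjusted p between 0.0143 and 0.0854 in the other 5).

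Of 37 gibberellin genes 2 rose and 1 fell, against 0.384% and 0.352% of all genes. The 2 that rose encode gibberellin 2-oxidases, which inactivate the hormone. *GA2OX8* was at 4.29, 4.34 and 4.18 in flc/svp leaves, against 3.34, 3.33 and 2.99 in FLC/svp leaves (1.05, adjusted p = 2.97e-05), and its change was 0.94, under 2-fold, without FLC/svp replicate 3. Both group means of *GA2OX8* lay under the median of all values (4.32), and a filter on low values removed it. *GA2OX6* rose by 1.54 (adjusted p = 0.00064), a call lost without FLC/svp replicate 1 or flc/svp replicate 1 or 2 (adjusted p between 0.0108 and 0.0132). *DDF1*, an AP2/ERF factor that lowers gibberellin when overexpressed, fell by 1.18 (adjusted p = 0.000317), and by less than 2-fold (−0.97) without flc/svp replicate 1. Of 22 sugar and starch genes *QQS* alone was called (4.55%, against 0.384% of all genes that rose). Of 19 leaf growth genes the TCP factor gene *TCP9* alone was called (5.26%, against the same share). It was at 5.93, 6.84 and 5.99 in flc/svp leaves and 4.87, 5.06 and 4.82 in FLC/svp leaves (1.34).

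The same loss was then set beside *FLC* loss in plants with SVP, which shares no array with it. With SVP, 553 genes were called (1.78%), 458 higher (1.48%) and 95 lower (0.306%). Of the 119 genes that rose without SVP, 52 also rose with SVP (43.7% of the 119 and 11.4% of the 458), 109 changed in the same direction (91.6%, against 43.4% of all genes) and the median change with SVP was 0.94. The 109 genes that fell were unlike these, since 22 fell and 26 rose with SVP, 47 had a change below 0 (43.1%, against 56.6% of all genes), and their median change with SVP was 0.49. In the 4 genotypes in turn, the median level of the 119 genes was 6.99 in flc/svp, 5.48 in FLC/svp, 6.50 in flc/SVP and 5.22 in FLC/SVP leaves, and that of the 109 was 5.74, 7.67, 6.81 and 6.83.

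**Figure D4:**
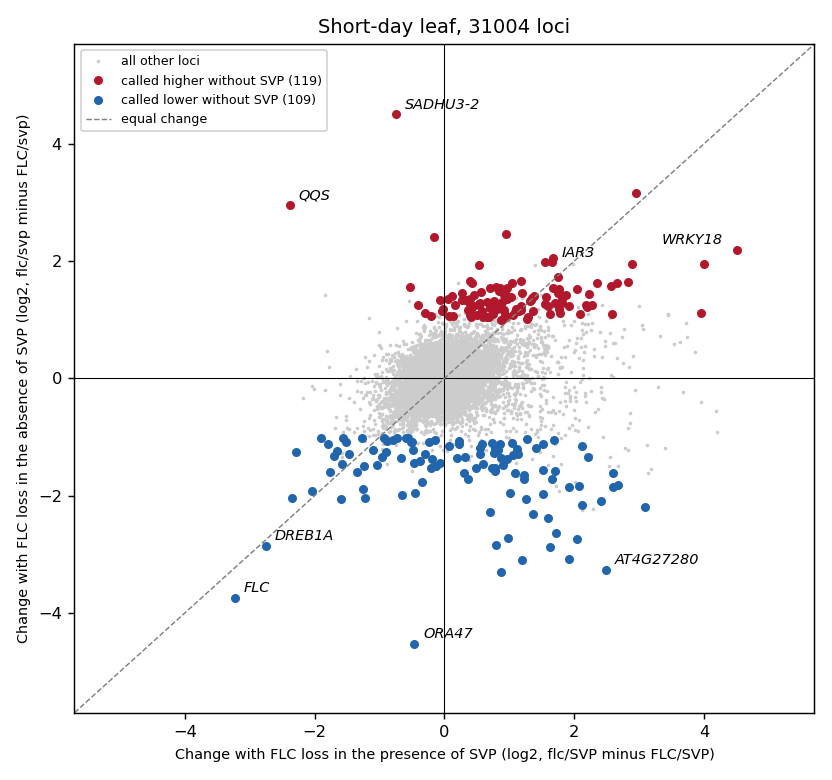
Log2 change on *FLC* loss in SD leaves without SVP (y axis) against that with SVP (x axis), 1 point per gene. Red marks the 119 genes called higher and blue the 109 called lower without SVP, grey all others, and the dashed line equal change. Most red points lie right of 0, and the blue points spread to both sides of 0 on the x axis.

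Whether the effect of *FLC* loss differed between the 2 backgrounds was tested gene by gene, as the change without SVP minus the change with SVP. 345 genes were called (1.11%), 304 of them with the more negative change without SVP (0.981%) and 41 with the more positive one (0.132%). The difference contains the change by which the following genes were chosen, so their counts are a description and their direction is largely set by the choice. Among the 109 genes that fell, 61 were called in the difference with a more negative change without SVP, and among the 119 that rose 15 with a more positive and 3 with a more negative one. Among the 458 genes that rose with SVP, 216 were called with a lower change without SVP, and the median changes over the 458 were 0.20 without SVP and 1.52 with SVP. When any 1 of the 12 arrays was left out, 296 to 383 genes were called.

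Most of the touch, wound and early stress list differed between backgrounds. With SVP, 12 of its 21 members rose (against 1.48% of all genes) and none fell, with a median change of 1.75. In the test of the difference 16 members were called with the more negative change without SVP (against 0.981% of all genes). The median difference of the list was −3.28. The mean level of the list was 6.56 to 7.02 in flc/svp, 7.68 to 8.34 in FLC/svp, 7.50 to 8.80 in flc/SVP and 6.10 to 6.42 in FLC/SVP arrays, so the single mutants were the high groups. *ERF104*, for example, was at 8.30, 7.58 and 7.15 in flc/SVP leaves and at 6.49, 6.16 and 6.79 in FLC/SVP leaves (1.20, adjusted p = 0.13), and the difference between backgrounds was −4.29 (adjusted p = 4.75e-05). *MYB77* and *ORA47* are not members of the list. *MYB77* rose by 1.92 with SVP, where flc/SVP leaves had 8.41, 8.55 and 7.82 and FLC/SVP leaves 6.23, 6.14 and 6.64. Its difference between backgrounds was −5.00 (adjusted p = 2.22e-07). *ORA47* gave 8.03, 6.75 and 6.43 in flc/SVP leaves and 7.82, 6.93 and 7.87 in FLC/SVP leaves. These groups overlapped (−0.47, adjusted p = 0.615), and the difference between backgrounds was −4.06 (adjusted p = 5.9e-06).

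*CYP707A3*, which degrades abscisic acid, fell by 2.09 without SVP (adjusted p = 0.000173) and rose by 2.42 with it (adjusted p = 5.73e-06), a difference of −4.51. *AT1G05575* had a difference of −5.27, and fell by 2.19 without SVP, a call lost without FLC/svp replicate 1 or 2 or flc/svp replicate 3 (adjusted p between 0.0207 and 0.0570). *WRKY18* rose in both backgrounds but by less without SVP (2.19) than with it (4.51), a difference of −2.32 (adjusted p = 0.00074). *DREB1A* fell by almost the same amount in both, −2.85 without SVP and −2.75 with it, where flc/SVP leaves had 5.80, 5.01 and 5.18 and FLC/SVP leaves 7.71, 8.21 and 8.35. Its difference of −0.10 (SE 0.50) did not pass the test (adjusted p = 0.983).

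Of the 30 jasmonate genes, 7 rose without SVP and 15 with SVP (against 0.384% and 1.48% of all genes), none fell in either background, and 5 rose in both (*LOX3*, *AOC1*, *AOC3*, *OPR3* and *CYP94C1*). Its mean level was 7.79 to 8.01 in flc/svp, 7.31 to 7.44 in FLC/svp and 7.49 to 7.92 in flc/SVP arrays, and 6.39, 6.32 and 7.15 in the FLC/SVP arrays, the third of which stood apart. Without that array 16 members were called with SVP. *JAR1* did not share the pattern, being at 7.38, 6.75 and 6.79 in flc/SVP and 6.97, 7.01 and 7.14 in FLC/SVP leaves (−0.06, adjusted p = 0.884), so that its difference between backgrounds was 1.39 (adjusted p = 5.9e-06). *JAZ7*, *JAZ6* and *LOX4* went the other way, with changes of −0.91, 0.11 and 0.61 without SVP, none of them called, and rises of 4.20, 1.95 and 2.62 with SVP.

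Further genes rose without SVP but not with it, and *QQS* fell with SVP. *ABR1* differed by 1.40 between backgrounds (adjusted p = 0.000488). *MYB34*, an activator of indole glucosinolate synthesis, was at 8.07, 8.91 and 7.83 in flc/svp leaves, against 6.95, 7.33 and 6.78 in FLC/svp leaves (1.25, adjusted p = 3.43e-05, and 0.92 without flc/svp replicate 2), with a difference of 1.66. *AT3G56260* rose by 1.56 and differed by 2.09. *SADHU3-2*, *QQS* and *AT1G67105* differed by 5.25, 5.34 and 2.57.

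The change was also followed in the other *svp* samples, which share no arrays with the SD leaves. In LD leaves 81 genes were called (0.261%), 62 higher (0.200%) and 19 lower (0.0613%). In SD apices 11 were called (0.0355%), 6 higher (0.0194%) and 5 lower (0.0161%), and in LD apices 8 (0.0258%), 7 higher (0.0226%) and 1 lower (0.00323%). Of the 119 genes that rose in SD leaves, 113 changed in the same direction in LD leaves (95%, against 48.8% of all genes), 25 of them called, with a median change of 0.73. Of the 109 that fell, 102 did so in sign (93.6%, against 51.2%), 11 of them called, with a median of −0.53. In apices the medians were smaller, at 0.17 in SDs and 0.06 in LDs for the 119 genes and −0.36 and −0.25 for the 109. *FLC*, *SADHU3-2*, *QQS* and *AT1G67105* were called in the same direction in all 4 settings. Within the LD leaves, *OPR3* rose by 1.88, *LOX3* by 1.72 and *IAR3* by 1.58, and 8 of the 30 jasmonate genes were called higher (26.7%, against 0.200% of all genes). None of the 21 touch, wound and early stress genes was called there (median −0.14), and *ORA47* and *ERF5* gave −1.51 (adjusted p = 0.0423) and −0.42 (adjusted p = 0.918).

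**Figure D5:**
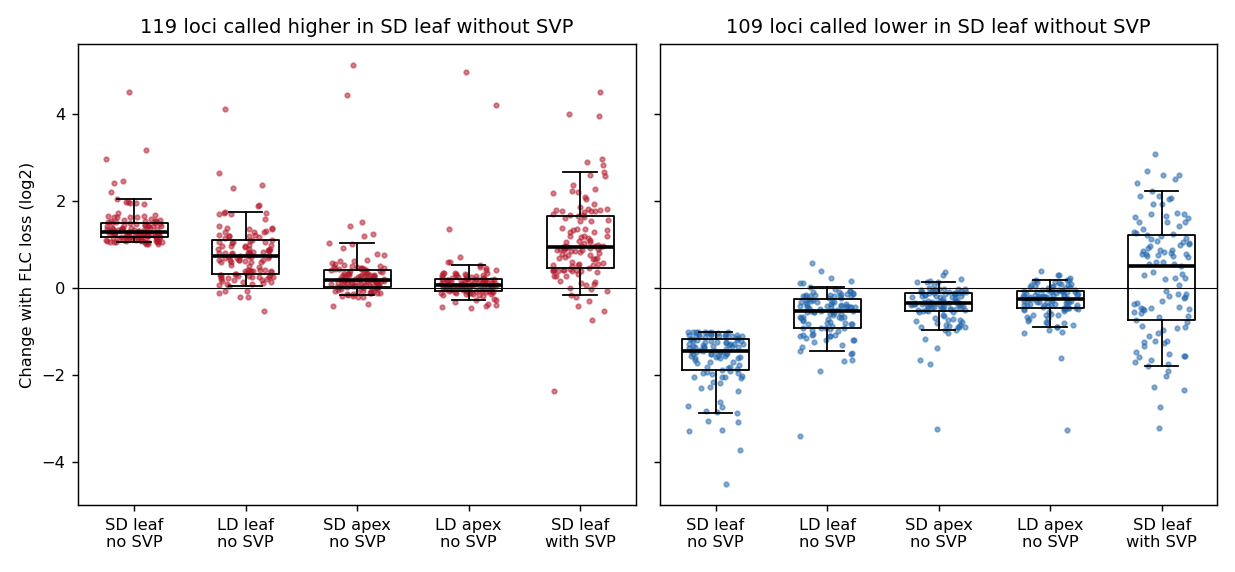
Log2 change on *FLC* loss (y axis) of the 119 genes called higher (red) and 109 called lower (blue) in SD leaves without SVP, in SD leaves, LD leaves, SD apices and LD apices without SVP and in SD leaves with SVP. Boxes span the quartiles, lines are medians and whiskers reach from the 5th to the 95th percentile. The SD leaf box is the one that chose the genes and the others come from separate arrays, with medians of 0.73 and −0.53 in LD leaves.

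The change in SD leaves was tested against that in LD leaves and in SD apices. No gene passed for day length with limma, where 2408 genes had an unadjusted p under 0.05 and the smallest adjusted p was 0.0104. The count was 4 with a trended, robust variance and 0 to 9 when 1 of the 12 arrays was left out. Against SD apices 31 genes passed (0.100%), 21 with a more positive (0.0677%) and 10 with a more negative (0.0323%) change in leaves. *ORA47* differed most among the genes described here, by −3.97, since in SD apices its change was −0.56. *AT3G23550* (2.90), *RTFL1* (2.06), *ABR1* (1.77), *IAR3* (1.42) and *JAR1* (1.31) had larger rises in leaves. The tissue difference contains the SD leaf change by which these genes were chosen, so its direction is largely set by the choice. *QQS* rose less in leaves (2.95) than in apices (4.44), by −1.48. The count was 12 without flc/svp SD leaf replicate 2 and 53 without flc/svp SD leaf replicate 3.

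Genes listed in the work's chromatin immunoprecipitation tables as bound by FLC were counted, from their identifiers alone. Of 360 measured genes bound in *svp* plants 5 rose (1.39%, against 0.384% of all genes) and 3 fell (0.833%, against 0.352%), with a median change of 0.02. Of 324 bound in plants with SVP, 3 rose (0.926%) and 5 fell (1.54%), against the same shares of all genes. Bound in *svp* plants were *ILL6*, *BBX13*, a B-box zinc finger gene at 8.05, 8.22 and 8.17 in flc/svp and 7.20, 7.14 and 7.09 in FLC/svp leaves (1.00, adjusted p = 0.00392), and *AT3G51450*, *AT4G21870* and *AT5G37440* among those that rose, and *DREB1A*, *AT2G29300* and *RD26*, a NAC factor of drought responses, among those that fell. *SOC1* was listed as bound both with and without SVP, and its change of 0.90 was under the 2-fold threshold. The rise of *BBX13* was 2.003-fold, just over the threshold, and its call was not followed when arrays were left out. *RD26* fell by 1.15 (adjusted p = 0.00464), a call that only the set without flc/svp replicate 2 kept (adjusted p between 0.0115 and 0.0343 in the other 5 sets). Around the *FLC* locus, 3 of the 600 nearest genes in the annotation order were called (0.5%, against 0.735% of all genes), *EXL4*, *MES5* and *JAZ10*, and all 3 rose.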

How the data were processed

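The deposited log2 values were computed by the authors by RMA, a method that subtracts background, gives all arrays a common distribution and combines the probes of a gene into 1 level. The version and the gene annotation release are not given in the sources used here. Symbols came from RefSeq locus tags, which matched 30484 of 31004 genes (98.3%). All 48 arrays were fitted with limma 3.58.1 in R 4.3.3 as 16 group means, with the replicate number as a random block (correlation 0.0336) and Benjamini-Hochberg adjustment over all genes. The study's methods use Storey q-values instead of that adjustment. The fit was tested on simulated data. The members, the 19 gene and marker lists and the alternatives were chosen with earlier results of these data known. Genes were named by rule: *FLC*, *SVP*, 2 reference genes, the 12 largest rises and 12 largest falls among called genes with non-overlapping arrays, up to 6 called members of each list, the 5 most negative and 5 most positive differences between backgrounds, and genes called in all 4 settings. *JAR1*, *ILL6*, *WRKY53*, *TEM2*, *JAZ3*, *SOC1*, *BBX13*, *RD26*, the other uncalled or FLC-bound genes given with values, and those of the closing observations were chosen after their values were seen. Alternatives covered the block, the variance model, the arrays fitted, the thresholds, a filter on low values, centring of arrays, and leaving out each array. Promoter motifs were not analysed here.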

Additional observations from a re-analysis of the deposited data

Results flagged for a closer look

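The effect of *FLC* loss in SD leaves differed between plants without and with SVP for 345 genes, by a limma test of the difference itself. Differences are given as the change without SVP minus the change with SVP, on the log2 scale. Most genes named here were chosen by the change without SVP, which largely sets the direction of their difference. Among genes that fell without SVP they were −4.06 for *ORA47*, −4.17 for *ERF5*, −5.75 for *AT4G27280*, −4.29 for *ERF104*, −5.00 for *MYB77*, −4.50 for *PBP1*, −3.62 for *AT1G35210*, −4.78 for *ERF105*, −3.71 for *ACS6* and −4.35 for *AT4G37290*. They were −1.96 for *DDF1*, −2.99 for *WRKY70*, −4.49 for *WRKY33*, −3.68 for *ZAT6*, −3.28 for *RRTF1*, −5.27 for *AT1G05575*, −4.51 for *CYP707A3* and −3.27 for *RD26*. *WRKY53*, which was not called without SVP (−1.49, adjusted p = 0.0131), had a difference of −4.16. *WRKY18*, which rose in both backgrounds, had −2.32.

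Positive differences among genes that rose without SVP were 5.25 for *SADHU3-2*, 5.34 for *QQS*, 2.57 for *AT1G67105*, 1.40 for *ABR1*, 1.01 for *TCP9*, 2.09 for *AT3G56260*, 1.66 for *MYB34*, 1.39 for *JAR1* and 1.26 for *ARR6*. *TEM2* had 3.25, with a change of 1.41 without SVP that was not called and a fall of 1.84 with SVP.

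Without SVP, the effect in SD leaves differed from that in SD apices for 31 genes. Most genes named here were chosen by their SD leaf change, which is part of the difference and largely sets its direction. The leaf change minus the apex change was 2.90 for *AT3G23550*, −1.48 for *QQS*, 2.06 for *RTFL1*, 1.42 for *IAR3*, 1.77 for *ABR1*, −3.97 for *ORA47*, 1.56 for *TCP9*, 1.63 for *AT3G56260* and 1.31 for *JAR1*.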

How the results depend on the processing

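The 228 genes called on *FLC* loss without SVP in SD leaves became 147 in a separate fit of each tissue (141 shared), 76 in a fit of the 6 arrays alone (69 shared) and 707 with no fold threshold. The other settings gave 213 to 278 genes, and leaving out 1 array gave 174 to 215. The difference between backgrounds (345 genes) became 228 and 166 in the separate and own-array fits, and was 296 to 383 when 1 array was left out. The day-length difference (0 genes) became 4 with a trended, robust variance and 0 to 9 when 1 array was left out, and the tissue difference (31 genes) became 12 to 53. Without the replicate block 213 genes were called in SD leaves without SVP, and with the replicate as a fixed block 243. Arrays of the same number had deviations that correlated at −0.04, 0.09 and 0.14, and replicate 1 did not correlate best with its own number. The arrays were therefore not compared in pairs, although the main fit kept the number as a random block (correlation 0.0336). Leaving out 1 array moved *PP2A* between −0.0364 and 0.0793 and *UBC21* between −0.0637 and 0.0077, and *PP2A* was also negative, at −0.0042, without flc/svp replicate 1. Of 58 called genes followed through these settings, 21 kept the call in every setting and 37 lost it in at least 1, 22 of them when 1 array was left out. *BBX13*, *AT3G51450*, *AT4G21870*, *AT5G37440*, *AT2G29300*, *EXL4* and *MES5* were not followed in this way. Among the 37, *LOX3*, *CYP94C1*, *CEJ1* and *AT4G37290* lost the call in the separate tissue fit and in the fit of the 6 arrays alone. *JAR1*, *TAT3*, *AT3G23550*, *EDS5*, *ABR1*, *WRKY25*, *TCP9*, *CYP707A3*, *AT3G56260*, *ARR7* and *CRF5* lost it only in the fit of the 6 arrays alone. Centring each array on its median moved the median change of all genes to −0.0037 and the calls to 115 higher and 111 lower. The own-array, trended and centred fits and those with 1 array left out used the correlation of the full fit. In the separate fit of each tissue it was estimated anew. A group left with 2 arrays was assumed to vary like the others. With 3 arrays a group, an exact permutation of 1 gene cannot go below a two-sided p of 0.10, so every call rests on the spread shared across genes and groups. The cause of the lower counts in fits of fewer arrays was not tested.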

Other observations

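3 genes linked to phosphate starvation, which were in none of the lists and were chosen after their values were seen, fell on *FLC* loss, and other genes of that response were not counted. *SPX1*, an intracellular phosphate sensor induced by low phosphate, was at 5.03, 5.22 and 4.98 in flc/svp SD leaves and at 7.33, 6.89 and 7.12 in FLC/svp SD leaves, with no overlap (−2.04, limma adjusted p = 9.53e-08). *PAP17*, a purple acid phosphatase, was at 5.46, 5.78 and 5.50 in flc/svp leaves, against 7.50, 7.57 and 7.43 in FLC/svp leaves (−1.92, adjusted p = 1.94e-06). *SRG3*, which encodes a glycerophosphodiester phosphodiesterase, was at 5.84, 5.79 and 5.54 in flc/svp leaves and at 7.25, 7.27 and 7.46 in FLC/svp leaves (−1.60). All 3 also fell with SVP, by 2.35, 2.04 and 1.35, and *SPX1* fell in LD leaves without SVP by 1.45 and in SD apices by 1.40. *PAP17* gave −0.77 and −0.97 there, and *SRG3* −0.52 and −0.36, none of them called. Their calls without SVP held in every alternative run.

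4 genes of cytokinin signalling and turnover, also chosen after their values were seen, rose, and other genes of that pathway were not counted. *ARR6*, a response regulator gene induced by cytokinin, was at 8.65, 8.67 and 9.14 in flc/svp leaves and at 7.17, 7.14 and 7.19 in FLC/svp leaves (1.65, adjusted p = 6.59e-07). Its relative *ARR7* was at 8.996, 9.19 and 8.77 in flc/svp leaves, against 7.98, 7.64 and 7.29 in FLC/svp leaves, a rise of 1.35. *CRF5*, a cytokinin response factor, rose by 1.24. *CKX4*, a cytokinin oxidase, rose by 1.46, a call lost without FLC/svp replicate 3 (adjusted p = 0.0125) or flc/svp replicate 2 (adjusted p = 0.0117). With SVP, *ARR6* and *ARR7* differed by 0.39 each and *CRF5* by 0.43 and were not called, while *CKX4* rose by 1.75.

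The abscisic acid receptor genes *PYL4* and *PYL5* rose by 1.37 (adjusted p = 0.00978) and 1.24 (adjusted p = 0.00685) without SVP. *PYL4* lost its call when any 1 of the 6 arrays was left out (adjusted p between 0.0182 and 0.0584), and *PYL5* when either of FLC/svp replicates 1 and 2 or of flc/svp replicates 1 and 3 was left out (adjusted p between 0.0393 and 0.0558).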
